A study of Mus musculus with 15 samples.

Results

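Gene expression in the newborn mouse palate was compared with that of the fetal palate at embryonic day 16.5. The members were the 6 libraries of these stages, 3 labelled E16.5 and 3 labelled P0 (the day of birth), out of 15 libraries from 5 stages in the whole series, and all genes of the deposited count table (54232) were considered. All 15 libraries came from wild-type mice, and each was made from dissected secondary palates that had been pooled from 3 embryos or pups. No strain, sex, litter, delivery time or dissection time is given in the labels. The p values therefore measure how much the pools of all 5 stages vary, which may in part be technical. The series' stated aims name *Pax9* and sclerostin, the product of *Sost*, in palate development. The comparison asked which genes differ between the last fetal stage sampled and birth, after the shelves have fused and while the bony palate grows.

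The secondary palate is the roof of the mouth and the floor of the nasal passage. After its shelves fuse, its mesenchyme forms bone and connective tissue, and its oral side is covered by a stratified epithelium. Birth exposes this tissue to air, feeding, handling and a change in circulating hormones. Immediate early genes are transcribed within minutes of a stimulus without new protein synthesis, and many encode AP-1 transcription factors or phosphatases that switch signalling off again. Glucocorticoids, the adrenal steroids that increase toward birth, bind a nuclear receptor that induces a well-studied set of target genes. Sclerostin is a secreted inhibitor of Wnt signalling made mainly by osteocytes, the cells embedded in bone.

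The 6 libraries held 21.5 to 52.3 M counts in genes. Levels are given in CPM, counts scaled to a common library total, and a detection floor of 3 counts lay between 0.0574 and 0.140 CPM. P0 library 3 was the shallowest. Floors cover counting error only. Markers of 2 tissues outside the palate were unequally present. Summed over the adipocyte markers, the levels were 2757, 220 and 177 CPM in E16.5 libraries 1 to 3 and 1228, 5258 and 175 CPM in P0 libraries 1 to 3. Pituitary markers summed to 1518, 31.4 and 12.7 CPM at E16.5 and to 19, 3074 and 90.6 CPM at P0, so pituitary RNA was high in E16.5 library 1 and P0 library 2 and not in P0 library 1. Skeletal muscle markers summed to 57920, 26345 and 18759 CPM at E16.5 and to 43400, 54547 and 9182 CPM at P0. None of the markers on these lists was at 0 in all 6 libraries. Expression of the Y-linked *Ddx3y* was 0.0647, 0.0277 and 0.0489 CPM at E16.5 and 26.9, 0.152 and 36.0 CPM at P0, and *Xist*, the RNA that silences an X chromosome in females, stood at 269, 674 and 634 CPM and at 1.61, 359 and 11.2 CPM. In the 3 E16.5 pools and P0 library 2 no Y-linked gene of the list was above 0.166 CPM, while P0 libraries 1 and 3 held much more, and stage and sex cannot be told apart in those P0 libraries. None of the 5 sex-linked genes passed edgeR's test, although the Y-linked *Uty*, *Kdm5d*, *Eif2s3y* and *Ddx3y* had log2 fold changes of 6.63, 7.56, 7.78 and 7.95, and DESeq2 called 4 of the 5 higher. Of the 78 genes that passed edgeR's test 2 (2.56%) were X-linked, against 3.28% of all tested genes.

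**Figure D1:**
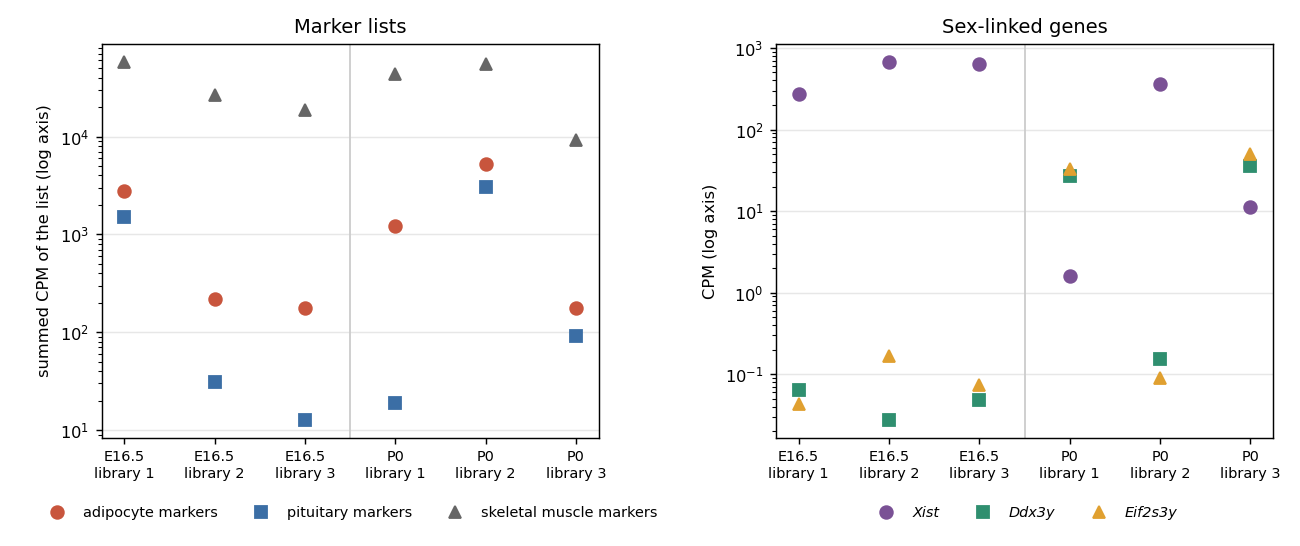
Summed CPM of the adipocyte, pituitary and skeletal muscle marker lists (left) and CPM of 3 sex-linked genes (right) in each of the 6 libraries, on log axes, 1 point per library. Adipocyte markers reach 2757 CPM in E16.5 library 1 and 5258 CPM in P0 library 2, and *Ddx3y* is above 20 CPM only in P0 libraries 1 and 3.

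Few genes passed the test between the stages. Of 22151 genes tested, 78 (0.352%) passed an adjusted p of 0.05 in edgeR's quasi-likelihood test fitted over all 15 libraries, with 42 (0.190%) higher and 36 (0.163%) lower at P0. In that test 2602 genes (11.7%) had an unadjusted p under 0.05, so the few calls do not show that few genes differed. The rises were larger than the falls: 34 of the 42 higher genes and 11 of the 36 lower genes differed by at least 2-fold. In each of the 78 genes the 3 P0 libraries lay on 1 side of the 3 E16.5 libraries, which passing the test makes likely by itself. The calls rest on few libraries and on the spread estimated over all 5 stages. The library quality weights of limma-voom, which are lower for more variable libraries, were 0.46, 0.41 and 0.43 in the P0 libraries. They were 0.25, 1.38 and 1.16 in the E16.5 libraries and from 0.35 to 9.06 in the earlier stages. A fit to the 6 libraries alone called 0 genes (1129 at an unadjusted p under 0.05), and a fit without the 3 libraries with stray tissue (E16.5 library 1 and P0 libraries 1 and 2) also called 0 (5038 unadjusted), while DESeq2 called 667. The calls were 36 higher and 17 lower with upper-quartile normalization, and 10 and 12 genes in all passed without E16.5 replicates 2 and 3, against 216 without E16.5 replicate 1. Large differences alone seldom passed: of 178 genes that differed at least 4-fold in either direction, 129 had overlapping libraries and 10 passed.

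**Figure D2:**
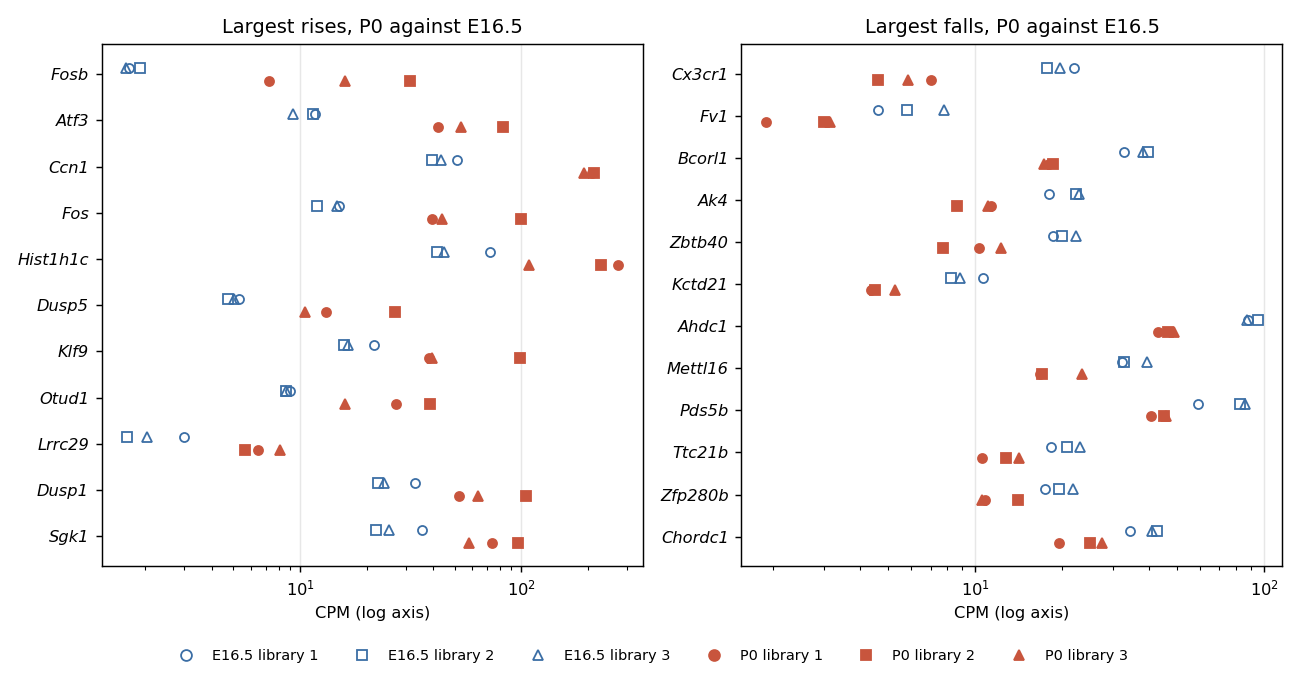
CPM (log axis) of 11 of the 12 largest rises (left) and the 12 largest falls (right) among genes past the threshold, with a mean of 5 CPM or more in their higher stage; open symbols are E16.5 libraries, filled symbols P0 libraries, and shapes mark the library number. No gene has overlapping stages, and P0 library 2 (filled squares) is the highest point of every rise shown except *Hist1h1c* and *Lrrc29*.

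Immediate early genes were among the rises. Of 32 tested members of this list 9 rose and 0 fell, against 0.190% of all tested genes that rose, and 21 had all P0 libraries above all E16.5 libraries, against 6.23% of all genes. At an unadjusted p under 0.05, 23 members were higher, against 5.64% of all genes. The list's median log2 fold change was 0.96, beside a median of 8.94e-05 over all genes. *Fos* (ENSMUSG00000021250.13, GRCm38 chromosome 12, 85473890 to 85477273), which encodes an AP-1 subunit, was at 15, 11.9 and 14.7 CPM in E16.5 libraries 1 to 3 and at 39.4, 99.4 and 44.0 CPM in P0 libraries 1 to 3. The lowest P0 value was more than 2-fold above the highest E16.5 value, and the log2 fold change was 2.14 (SE 0.37, adjusted p 0.0338). Its relative *Fosb* moved further, from 1.68, 1.88 and 1.64 CPM to 7.27, 31.4 and 16 CPM. *Jun* (ENSMUSG00000052684.4, GRCm38 chromosome 4, 95049034 to 95052222), the partner of Fos proteins in AP-1, had a narrower rise, from 94.3, 88.2 and 89.5 CPM to 123, 179 and 177 CPM (log2 change 0.82, SE 0.13, adjusted p 0.0266).

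*Atf3*, a stress-inducible factor of the ATF and CREB family, was at 11.7, 11.5 and 9.35 CPM at E16.5 and at 41.9, 83.1 and 53.5 CPM at P0. *Nr4a1*, an orphan nuclear receptor, stood at 38.3, 39.3 and 28.3 CPM before and at 78.4, 108 and 65.1 CPM after birth (log2 change 1.25, SE 0.22, adjusted p 0.0383). Neither gene had overlapping stages. *Ccn1*, a matrix-associated signalling protein that is also a target of YAP and TEAD, was at 51.2, 39.6 and 43.6 CPM at E16.5 and at 210, 213 and 193 CPM at P0. It was the only one of the 12 genes on the YAP and TEAD list to pass, against 0.352% of all tested genes. The family member *Ccn2*, at 89.0, 70.7 and 81.3 CPM and then 221, 290 and 236 CPM, had an adjusted p of 0.0892. Beside targets the list holds *Yap1*, *Wwtr1* and *Tead1*, which encode the factors themselves. *Yap1* was at a mean of 145 CPM at E16.5 and 125 CPM at P0 (adjusted p 0.693). The list's median log2 fold change was 0.13, and 9 of the 12 were positive. At an unadjusted p under 0.05, 4 were higher, against 5.64% of all genes, and 2 had P0 libraries all above E16.5, against 6.23%.

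Genes that end these responses were among the rises. *Dusp1* (ENSMUSG00000024190.6, GRCm38 chromosome 17, 26505590 to 26508519) and *Dusp5* (ENSMUSG00000034765.6, GRCm38 chromosome 19, 53529109 to 53542431) encode phosphatases that inactivate MAP kinases. *Dusp5* rose from 5.29, 4.70 and 5.04 CPM to 13.1, 26.9 and 10.6 CPM (log2 change 1.74, SE 0.29, adjusted p 0.0311). *Dusp1* rose from 33.2, 22.6 and 24.0 CPM to 52.3, 105 and 64.1 CPM (log2 change 1.47, SE 0.27, adjusted p 0.0463). *Ppp1r15a*, which brings a phosphatase to the translation factor eIF2 and restores translation after stress, went from 41.9, 40.8 and 36.5 CPM to 70.4, 99.9 and 66.3 CPM (log2 change 0.99, SE 0.18, adjusted p 0.0463). In all 9 called members the highest value was that of P0 library 2. That library also had the most adipocyte and pituitary RNA and the highest share of mitochondrial counts, 2.83% against 1.49% and 1.95% in the other P0 libraries, and the part of these in the rise was not tested. Without P0 replicate 2, 4 members passed and the list's median was 0.72, and without E16.5 replicate 2 or 3, 2 members passed. None passed in the fit to the 6 libraries alone, where the median was 0.99.

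Other members were higher at P0 without passing the test. *Junb*, an AP-1 subunit, was at 22.2, 15 and 18.7 CPM and then at 31.3, 60.7 and 39.5 CPM (adjusted p 0.0817). *Ier3*, a regulator of cell survival, had an adjusted p of 0.0712 at 13.8, 12.5 and 13.8 CPM and then 19.2, 24.9 and 24.6 CPM. *Egr1*, a zinc finger factor often used as a marker of acute stimulation, was at 31.4, 32.2 and 28.0 CPM and at 49.8, 111 and 35.2 CPM (adjusted p 0.246), so that P0 library 3 was barely above E16.5. *Fosl1* had a fitted log2 fold change of 3.84, which rests on E16.5 levels of at most 0.0553 CPM, under the 3-count floor, and on 0.305, 0.732 and 1.87 CPM at P0.

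Promoters are shown for 4 rising genes that hold a full match to a motif bound by factors of the immediate early or glucocorticoid response. *Klf9* and *Errfi1* also held a match and are not shown. Each sequence shown is the 250 bases before a RefSeq start (GRCm38.p6), with the match in capitals. *Dusp5* (chr19:53528895-53529144, plus strand) holds 2 adjacent CArG boxes, the site of serum response factor, at 82 to 73 and 72 to 63 bases before the start. *Dusp1* (chr17:26508473-26508722, minus strand) and *Ppp1r15a* (chr7:45526269-45526518, minus strand) hold the cyclic AMP response element TGACGTCA. *Sgk1*, a glucocorticoid target, has 6 start sites in RefSeq, and the fifth (chr10:21993640-21993889, plus strand) holds the palindromic glucocorticoid receptor element, in which 3 bases part AGAACA from TGTTCT.
Dusp5: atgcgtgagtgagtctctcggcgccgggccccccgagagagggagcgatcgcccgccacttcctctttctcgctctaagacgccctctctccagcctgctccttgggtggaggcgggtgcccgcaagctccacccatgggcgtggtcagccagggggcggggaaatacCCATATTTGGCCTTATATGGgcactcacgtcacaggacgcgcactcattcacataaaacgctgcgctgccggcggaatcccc
Dusp1: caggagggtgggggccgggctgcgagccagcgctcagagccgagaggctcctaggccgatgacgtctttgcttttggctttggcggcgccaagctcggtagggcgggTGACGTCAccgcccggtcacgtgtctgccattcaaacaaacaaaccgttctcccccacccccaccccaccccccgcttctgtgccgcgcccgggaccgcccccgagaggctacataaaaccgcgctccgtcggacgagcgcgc
Ppp1r15a: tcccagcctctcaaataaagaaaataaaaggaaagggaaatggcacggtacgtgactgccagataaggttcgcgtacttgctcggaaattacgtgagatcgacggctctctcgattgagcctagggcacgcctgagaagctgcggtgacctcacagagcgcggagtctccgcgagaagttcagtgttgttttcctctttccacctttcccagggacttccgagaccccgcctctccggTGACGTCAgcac
Sgk1: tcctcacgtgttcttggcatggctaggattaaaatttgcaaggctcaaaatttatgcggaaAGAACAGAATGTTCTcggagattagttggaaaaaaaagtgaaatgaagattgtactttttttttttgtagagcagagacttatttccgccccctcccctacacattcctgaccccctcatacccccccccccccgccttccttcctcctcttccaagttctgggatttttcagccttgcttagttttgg
On both strands, a CArG box was found in 1.47% of the 32851 windows of this length in the RefSeq table, the cyclic AMP element in 1.55%, the AP-1 site TGANTCA in 6.75% and the glucocorticoid element in 0.00913% (3 windows). Among the 12 largest rises, 9 genes had an entry with 14 windows, and 1 window each held the CArG box (*Dusp5*), the cyclic AMP element (*Dusp1*), the AP-1 site (*Klf9*) and the glucocorticoid element (*Sgk1*). Over the 20 list members that passed (32 windows), the cyclic AMP element was in 3 windows, those of *Dusp1* and *Ppp1r15a* and 1 of *Errfi1*. No window of *Fos*, *Fosb*, *Atf3* or *Ccn1* held any of these 4 motifs. None of the 14 windows of the 11 falls with an entry held one either. The hypoxia response core, ACGTG or GCGTG, was in 38.6% of all windows, in 10 of the 14 windows of the rises and in 11 of the 14 of the falls. A match states only that these letters are present in the window. The lack of a match does not cover near matches or bases outside the window.

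Targets of the glucocorticoid receptor were also among the rises. Of 14 tested members 8 rose and 0 fell, against 0.190% of all tested genes that rose, and 11 had P0 libraries all above E16.5, against 6.23% of all genes. The median log2 fold change was 1.09. *Dusp1* is counted in both this list and the immediate early list, and *Per1* is also on the circadian clock list. Without E16.5 replicate 2 or 3, 3 members passed, without P0 replicate 2, 5, and in the fit to the 6 libraries alone 0, with a median of 1.13. *Tsc22d3* (ENSMUSG00000031431.13, GRCm38 chromosome X, 140539528 to 140600659), the anti-inflammatory leucine zipper protein GILZ, was at 134, 105 and 102 CPM at E16.5 and at 246, 222 and 219 CPM at P0. The P0 values were close to each other and apart from all E16.5 values (log2 change 1.01, SE 0.12, adjusted p 0.00415). *Per1* (ENSMUSG00000020893.17, GRCm38 chromosome 11, 69095217 to 69109960), a circadian clock repressor with glucocorticoid response elements, rose from 100, 86.5 and 72.7 CPM to 199, 212 and 159 CPM (log2 change 1.13, SE 0.13, adjusted p 0.00415). *Ddit4* (ENSMUSG00000020108.4, GRCm38 chromosome 10, 59949669 to 59951834), an inhibitor of mTORC1, rose from 72.1, 86.9 and 88.1 CPM to 177, 169 and 142 CPM (log2 change 0.98, SE 0.12, adjusted p 0.00415). These 3 genes passed whichever 1 of the 6 libraries was left out.

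*Sgk1* (ENSMUSG00000019970.15, GRCm38 chromosome 10, 21882184 to 21999903), a kinase that regulates ion channels, was at 35.6, 22.1 and 25.2 CPM and then at 73.6, 97.2 and 58.0 CPM (log2 change 1.46, SE 0.20, adjusted p 0.0115). *Fkbp5*, a co-chaperone that lowers the receptor's hormone affinity, stood at 106, 67.6 and 71.5 CPM and then at 156, 204 and 140 CPM (log2 change 1.03, SE 0.18, adjusted p 0.0338). *Errfi1*, a feedback inhibitor of the EGF receptor, went from 41.4, 29.5 and 33.3 CPM to 60.4, 89.6 and 66.7 CPM (log2 change 1.06, SE 0.17, adjusted p 0.0258). In these genes E16.5 library 1 was the highest of its stage, and it was still below every P0 library. *Klf9*, a zinc finger factor induced by glucocorticoid and thyroid hormone, was at 21.7, 15.7 and 16.4 CPM and then at 38.3, 98.9 and 39.4 CPM, with P0 library 2 far above the others (log2 change 1.71, SE 0.30, adjusted p 0.0383).

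Not all members passed the test, and some had overlapping stages. *Cdkn1a*, 1 of the 2 most abundant members of the list, overlapped. It was at 262, 260 and 193 CPM and then at 339, 437 and 175 CPM (adjusted p 0.623). *Pdk4*, which inhibits pyruvate dehydrogenase when fat is burned, was at 38.3, 24.7 and 21.2 CPM and then at 113, 721 and 34.7 CPM, with overlapping stages and an adjusted p of 0.101. *Zbtb16*, a zinc finger repressor, had 26.6, 93.5 and 19.9 CPM at P0 against 15.2, 11 and 9.84 CPM at E16.5. Its stages were separate (adjusted p 0.158). Adipocyte markers were at 1228, 5258 and 175 CPM in the P0 libraries and at 2757 CPM in E16.5 library 1. In that E16.5 library *Pdk4* and *Zbtb16* were lower than in P0 library 1. The part of adipose RNA in the list's rise was not tested. In P0 library 3, with 175 CPM of these markers, the median log2 ratio of the list's members to their E16.5 mean was 0.87, beside 1.03 and 1.39 in P0 libraries 1 and 2 and -0.043, -0.045 and -0.037 for all genes. The receptor gene *Nr3c1* had a log2 fold change of -0.07 (adjusted p 0.943). Of the 16 circadian clock genes *Per1* alone rose, against 0.190% of all tested genes, and the median of these 16 was 0.30. *Nr1d2*, a clock repressor, was at 23.4, 20.4 and 22.1 CPM and then at 26.8, 59.2 and 35.7 CPM (adjusted p 0.165).

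**Figure D3:**
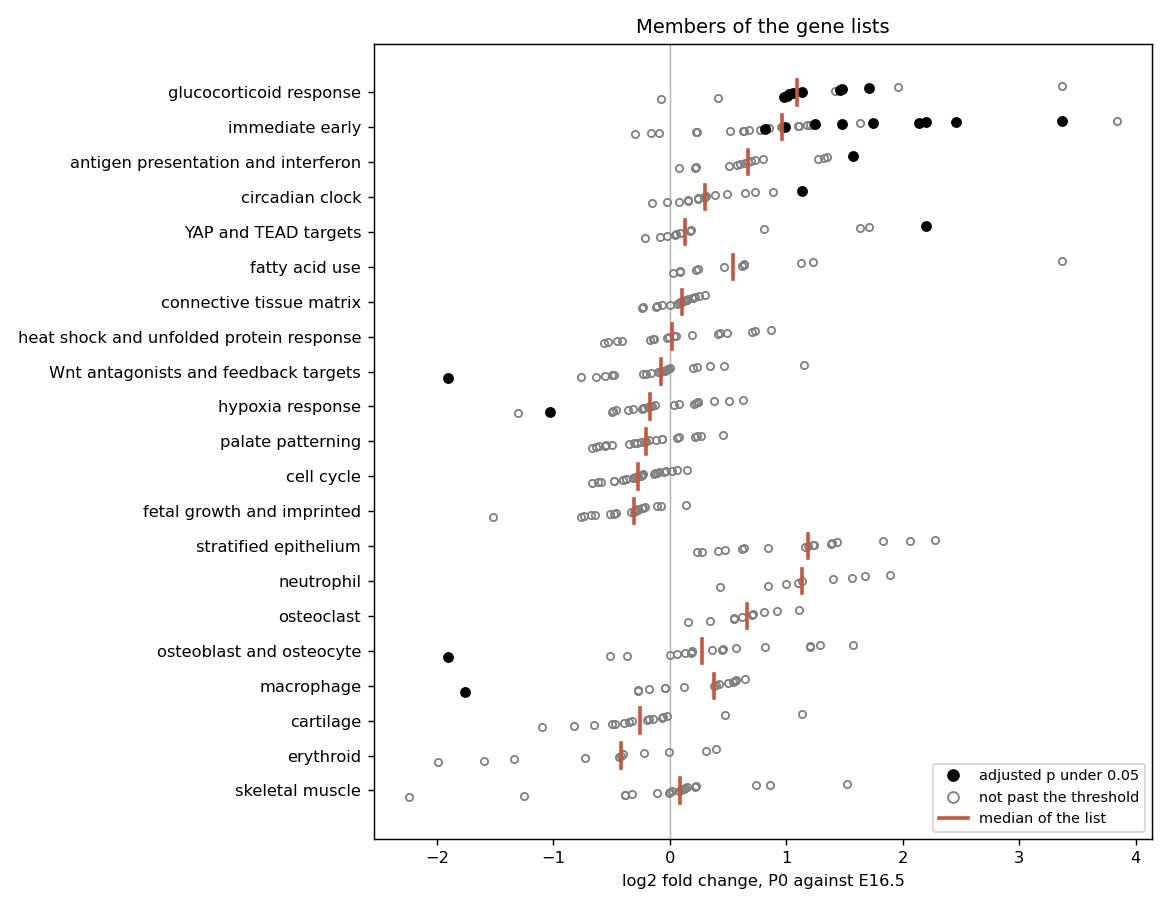
Log2 fold change (P0 against E16.5) of every tested member of 21 gene lists; black points passed an adjusted p of 0.05, open points did not, and red bars are list medians. The glucocorticoid response (median 1.09) and immediate early (median 0.96) lists hold most black points, while the stratified epithelium and neutrophil lists have medians above 1 with no member past the threshold.

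Of the remaining large rises, *Hist1h1c* (ENSMUSG00000036181.2, GRCm38 chromosome 13, 23738808 to 23740367) encodes a linker histone whose transcripts can be polyadenylated in cells that have stopped dividing. It was at 72.0, 41.7 and 44.8 CPM and then at 274, 231 and 108 CPM (log2 change 1.95, SE 0.33, adjusted p 0.0338). *Otud1*, a deubiquitinase, had nearly equal E16.5 values of 9.04, 8.63 and 8.66 CPM and P0 values of 27.2, 38.5 and 16 CPM (log2 change 1.63, SE 0.28, adjusted p 0.0338). *Lrrc29*, a leucine-rich repeat gene, went from 2.98, 1.66 and 2.03 CPM to 6.46, 5.67 and 8.14 CPM (log2 change 1.59, SE 0.28, adjusted p 0.0369).

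Among the falls with a mean of at least 5 CPM at E16.5, the largest was that of *Cx3cr1* (ENSMUSG00000052336.7, GRCm38 chromosome 9, 119901616 to 120069879), the fractalkine receptor of tissue macrophages and microglia. It was at 21.9, 17.7 and 19.6 CPM at E16.5 and at 7.02, 4.60 and 5.83 CPM at P0, and it passed whichever library was left out. No other macrophage gene passed the test: of 15 tested markers 1 fell and 0 rose, against 0.163% and 0.190% of all tested genes. A positive log2 fold change was found in 9 and a negative one in 6, *Cx3cr1* included (median 0.37). *Cx3cr1* was the only marker with separate stages. *Csf1r*, the receptor on which macrophages depend, was at 103, 84.8 and 123 CPM and then at 173, 104 and 126 CPM (adjusted p 0.484). *C1qa*, a complement subunit made by macrophages, was at 46.7, 24.9 and 29.3 CPM and then at 60.2, 42.5 and 46.1 CPM (adjusted p 0.369). In bulk tissue, fewer cells of a type and less RNA per cell cannot be told apart.

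*Ak4* (ENSMUSG00000028527.18, GRCm38 chromosome 4, 101419277 to 101466995), a mitochondrial adenylate kinase induced by hypoxia, was at 18, 22.2 and 22.9 CPM and then at 11.3, 8.66 and 11.1 CPM. It was the only fall among 23 tested hypoxia response genes, against 0.163% of all tested genes, and 0 rose (median log2 fold change -0.17). At an unadjusted p under 0.05, 5 were lower and 1 higher, against 6.10% and 5.64% of all genes. P0 libraries were all below E16.5 in 3 and all above in 1, against 5.39% and 6.23%. DESeq2 called 2 of the list lower. *Ankrd37*, another hypoxia-induced gene, had an adjusted p of 0.0642 at 16.3, 10.7 and 8.42 CPM and then 3.41, 5.49 and 5.36 CPM. *Vegfa*, the vascular growth factor, was at 121, 115 and 97.3 CPM and then at 59.5, 106 and 70.7 CPM with overlapping stages (adjusted p 0.27). The glycolytic gene *Ldha* had a log2 fold change of -0.16 (adjusted p 0.848).

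*Ahdc1* (ENSMUSG00000037692.14, GRCm38 chromosome 4, 133011260 to 133078110), a DNA-binding protein mutated in Xia-Gibbs syndrome, was at 87.5, 95.1 and 87.3 CPM before and at 42.8, 46.4 and 48.5 CPM after birth. Its log2 fold change was -0.97 (SE 0.12, adjusted p 0.005), and it passed whichever library was left out. *Bcorl1* (ENSMUSG00000036959.15, GRCm38 chromosome X, 48341358 to 48408049), an X-linked corepressor, was at 32.7, 39.6 and 38.0 CPM and then at 17.9, 18.5 and 17.3 CPM. The value of 18.5 CPM is that of P0 library 2, which expressed *Xist*, and the part of sex in this fall was not tested. *Pds5b*, a regulator of cohesin, fell from 59.1, 82.5 and 85.6 CPM to 40.4, 45.0 and 45.7 CPM (log2 change -0.79, SE 0.13, adjusted p 0.0311). *Mettl16*, an RNA methyltransferase, fell from 32.3, 32.6 and 39.2 CPM to 16.7, 17 and 23.4 CPM (log2 change -0.87, SE 0.13, adjusted p 0.0258).

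The falls also took in *Zbtb40* and *Zfp280b*, which encode zinc finger proteins, with log2 fold changes of -1.0 and -0.73, and *Kctd21*, a ubiquitin ligase adaptor, with -0.97. *Ttc21b*, a component of transport inside the cilium, fell by 0.73 on the log2 scale, from 18.2, 20.7 and 23.0 CPM to 10.5, 12.7 and 14.2 CPM. *Chordc1*, an HSP90 co-chaperone, fell by 0.71, and *Fv1*, a retrovirus restriction gene derived from an endogenous retrovirus, by 1.18. Adjusted p values of these 6 genes ran from 0.0258 for *Kctd21* to 0.0489 for *Fv1*. Among the 12 largest falls only *Cx3cr1* and *Ahdc1* passed whichever library was left out, and the other calls were lost most often without E16.5 replicate 2 or 3. Of the 36 falls, 3 (8.33%) belonged to any gene list, against 17 of the 42 rises (40.5%). The lists hold 476 genes, tested or not, beside 22151 tested genes. They were chosen with earlier results of these data known, so these shares depend on which lists were picked.

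*Sost* (ENSMUSG00000001494.6, GRCm38 chromosome 11, 101962458 to 101967015) was 1 of the 3 falls that belonged to a list. Its counts were 201, 128 and 152 at E16.5 and 40, 42 and 14 at P0, which is 4.34, 3.54 and 3.72 CPM against 1.11, 1.28 and 0.61 CPM. The stages did not overlap, and the log2 fold change was -1.90 (SE 0.36, adjusted p 0.0484). The call is at the edge of the threshold, since in the 6 fits that left out 1 library the adjusted p ran from 0.0539 to 0.177. *Sost* had climbed through the fetal stages, with means of 0.42, 0.61 and 2.01 CPM at E13.5, E14.5 and E15.5 and 3.87 CPM at E16.5. At P0 its libraries were below all E15.5 libraries, of which the lowest was at 1.73 CPM, and 2 of the 3 were above all E13.5 and E14.5 libraries, of which the highest was at 0.71 CPM.

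The other genes of bone did not fall with *Sost*. Of 18 osteoblast and osteocyte genes 0 rose and 1 fell, against 0.190% and 0.163% of all tested genes. A positive log2 fold change was found in 15 of the 18 (median 0.28). *Dmp1*, which like *Sost* is expressed in osteocytes, was at 65.8, 51.6 and 123 CPM and then at 173, 70.6 and 114 CPM (adjusted p 0.543). *Spp1*, the bone matrix protein osteopontin, was at 1338, 751 and 1251 CPM and then at 4030, 2010 and 1666 CPM, with separate stages and an adjusted p of 0.317. *Col1a1*, the main collagen of bone, stood at a mean of 14596 CPM at E16.5 and 19940 CPM at P0 (adjusted p 0.612). Of 10 osteoclast genes 0 passed, 10 had a positive log2 fold change (median 0.66) and 4 had P0 libraries all above E16.5, against 6.23% of all genes. *Ctsk*, the protease with which osteoclasts degrade bone collagen, was at 569, 505 and 917 CPM and then at 1733, 921 and 1111 CPM (adjusted p 0.367), and *Acp5*, their acid phosphatase, at 360, 262 and 473 CPM and then at 1211, 527 and 616 CPM (adjusted p 0.452). P0 library 1 was the highest for *Spp1*, *Col1a1*, *Ctsk* and *Acp5*.

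Among 22 Wnt antagonists and feedback targets *Sost* was likewise the only call, with 0 rises. Over all tested genes 0.163% fell and 0.190% rose. The list's median log2 fold change was -0.08. *Sfrp4*, a secreted Wnt antagonist, had the highest value of the list at 1.15 (adjusted p 0.295), from 9.56, 8.0 and 11.7 CPM to 23.2, 9.09 and 32.8 CPM with overlapping stages. *Sfrp1* and *Sfrp2*, the most abundant antagonists, had log2 fold changes of 0.23 and -0.17. *Pax9*, the transcription factor whose loss causes cleft palate, was at 23.8, 46.4 and 36.8 CPM and then at 29.0, 55.9 and 41.0 CPM (log2 change 0.23, SE 0.39, adjusted p 0.847). This is within the spread between libraries, and the sign turned to -0.039 without P0 replicate 2. Of 22 palate patterning genes 0 passed (median -0.21).

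Interferon-induced and antigen presentation genes were mostly higher at P0. Of 15 tested 1 rose, against 0.190% of all tested genes, and 0 fell. All 15 had a positive log2 fold change (median 0.67), and 9 had P0 libraries all above E16.5, against 6.23% of all genes. DESeq2 called 5 of the 15 higher. *Ifit1* (ENSMUSG00000034459.8, GRCm38 chromosome 19, 34640871 to 34650009), an interferon-induced antiviral protein, rose from 1.77, 1.44 and 1.49 CPM to 3.58, 5.21 and 5.40 CPM (log2 change 1.57, SE 0.30, adjusted p 0.0493), and its call was lost in all 6 fits that left out 1 library (adjusted p 0.0516 to 0.211). *Irf7*, the factor that amplifies the interferon response, was at 8.83, 5.39 and 4.01 CPM and then at 15.1, 14.6 and 17.1 CPM (adjusted p 0.0835). *Ifit3* went from 3.73, 2.41 and 1.81 CPM to 5.35, 6.13 and 8.66 CPM (adjusted p 0.0993). *B2m*, 1 of the 2 most abundant members of the list, had overlapping stages. It was at 128, 113 and 118 CPM and then at 150, 120 and 147 CPM (adjusted p 0.72). Of 9 tested neutrophil genes 0 passed and 9 had a positive log2 fold change (median 1.13). P0 libraries were all above E16.5 in 5 of them, against 6.23% of all genes, and DESeq2 called 1 higher. *S100a9*, a calcium-binding protein abundant in neutrophils, was at 13.1, 7.39 and 4.70 CPM and then at 21.3, 18 and 15 CPM (adjusted p 0.452).

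Genes of fetal growth and proliferation leaned the other way without passing edgeR's test. Of 20 fetal growth and imprinted genes 0 passed and 19 had a negative log2 fold change (median -0.30), while DESeq2 called 2 lower. At an unadjusted p under 0.05 in edgeR, 3 of the 20 were lower, against 6.10% of all genes. *Peg10*, an imprinted gene derived from a retrotransposon, was at 169, 307 and 244 CPM and then at 96.0, 105 and 49.7 CPM (log2 change -1.52, SE 0.35, adjusted p 0.0894). *Igf2bp1*, a fetal RNA-binding protein, was at 19.6, 25.1 and 26.9 CPM and then at 12.4, 16.1 and 14.3 CPM (adjusted p 0.0691), after means of 132, 74.4 and 45.4 CPM at E13.5 to E15.5. Of 27 cell cycle genes 0 passed and 24 had a negative log2 fold change (median -0.27). *Mki67*, a marker of dividing cells, was at 213, 256 and 332 CPM and then at 159, 182 and 276 CPM with overlapping stages (adjusted p 0.496).

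The epithelium of the palate could not be resolved between the stages. All 17 tested genes of the stratified epithelium list had a positive log2 fold change, with a median of 1.18, and 0 passed. *Krt13* and *Krt4*, the keratin pair of moist stratified epithelia, were at 305, 382 and 483 CPM and then at 269, 1032 and 1869 CPM, and at 296, 150 and 86.3 CPM and then at 129, 892 and 867 CPM. P0 library 1 was inside or below the E16.5 range for both, and the list's median in the 3 P0 libraries was -0.54, 0.17 and 1.79 relative to the E16.5 mean. Without P0 replicate 3 the list's median was 0.51. In the gland and secretory list (9 tested, 0 passed, median 0.90) *Bpifa1*, a secreted protein of the airway and nasal lining, had separate stages at 378, 91.3 and 55.2 CPM and then 759, 563 and 1248 CPM (adjusted p 0.346).

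None of the other cell types and processes examined gave a call in edgeR's test of all libraries. For cartilage (16 tested) the median log2 fold change was -0.26, for skeletal muscle (20) 0.09, for connective tissue matrix (19) 0.11, for endothelium (10) 0.12, for pericytes and smooth muscle (9) 0.09 and for Schwann cells (8) 0.05. Medians were -0.23 for neurons (10), 1.28 for olfactory neurons (8), 0.58 for ciliated cells (10) and 0.88 for tooth enamel and dentine (5). Fatty acid use (12) had a median of 0.54, the heat shock and unfolded protein response (18) 0.02, adipocytes (13) 0.60 and the pituitary (10) 0.62. Most of these medians turned on single libraries. Leaving out 1 library took the median for olfactory neurons to between -0.41 (without P0 replicate 3) and 1.75, for adipocytes to between -0.97 (without P0 replicate 2) and 3.95 (without E16.5 replicate 1), and for the pituitary to between -3.07 and 4.78 (without the same libraries). The range was -0.38 to 0.77 for skeletal muscle, -0.64 to 0.34 for cartilage, -0.95 to 0.19 for neurons and -0.31 to 0.39 for Schwann cells, and it also crossed 0 for endothelium, pericytes, connective tissue matrix and the heat shock list. The median fell to 0.05 for ciliated cells and 0.03 for fatty acid use without P0 replicate 2, and to 0.17 for tooth without P0 replicate 3. DESeq2 called 1 gene of the fatty acid list higher, and 1 gene of the heat shock list and 1 of the erythroid list lower. Among 11 erythroid genes the median was -0.42, and the embryonic globin gene *Hba-x*, at a mean of 215 CPM at E13.5, was at 0.324, 0.443 and 0.343 CPM at E16.5 and at 0, 0.183 and 0 CPM in P0 libraries 1 to 3, where the floor was 0.0727, 0.0805 and 0.140 CPM.

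**Figure D4:**
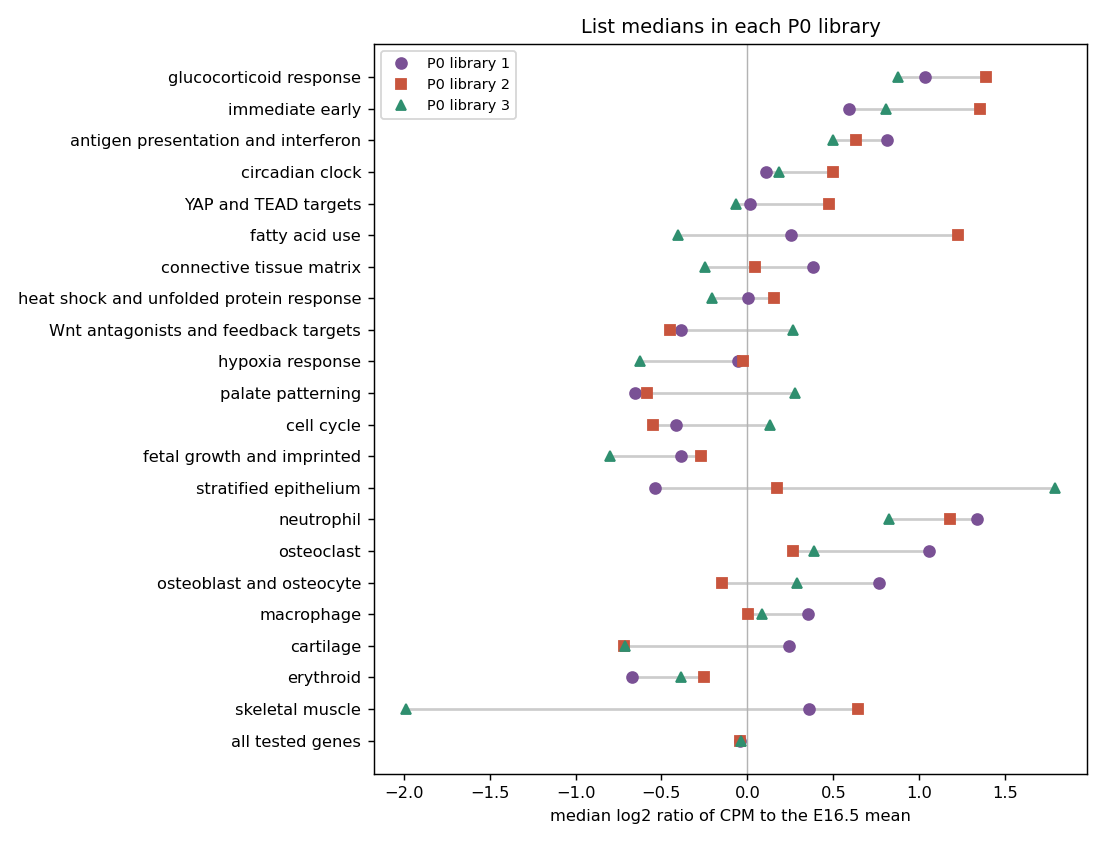
Median over each list's tested members of the log2 ratio of CPM in a P0 library to the E16.5 mean, 1 symbol per P0 library, with a grey line over their range. The glucocorticoid response list lies between 0.87 and 1.39 and the immediate early list between 0.59 and 1.35, whereas the stratified epithelium list runs from -0.54 to 1.79 and the skeletal muscle list from -1.99 to 0.64.

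The earlier stages, which enter the estimate of the spread but not the contrast, placed these differences in the course of development. Of the 42 rises, 41 had P0 libraries above all 12 fetal libraries, and the exception was *mt-Rnr2*, named here after its values were seen. Of the 1381 tested genes with P0 libraries above all E16.5 libraries, called or not, 778 (56.3%) were above all 12. Of the 36 falls, 35 had P0 libraries below all 12, and the exception was *Sost*. Of the 1193 tested genes with P0 libraries below all E16.5 libraries, 791 (66.3%) were below all 12. The called genes were also chosen for their difference from E16.5, so these counts are a description. The rises differed in what came before. *Ddit4* was level, at means of 93.7, 106, 95.1 and 82.4 CPM from E13.5 to E16.5, before 163 CPM at P0. *Ccn1* was at 34.2, 25.6, 38.2 and 44.8 CPM before 205 CPM. *Per1* was already higher from E15.5 on, at 42.7, 42.9, 68.0 and 86.5 CPM before 190 CPM, and *Atf3* was at 1.83, 2.34, 3.59 and 10.8 CPM before 59.5 CPM. *Cx3cr1* was at 11.1, 15.3, 20.9 and 19.8 CPM before 5.82 CPM, so its P0 level was below that of E13.5.

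**Figure D5:**
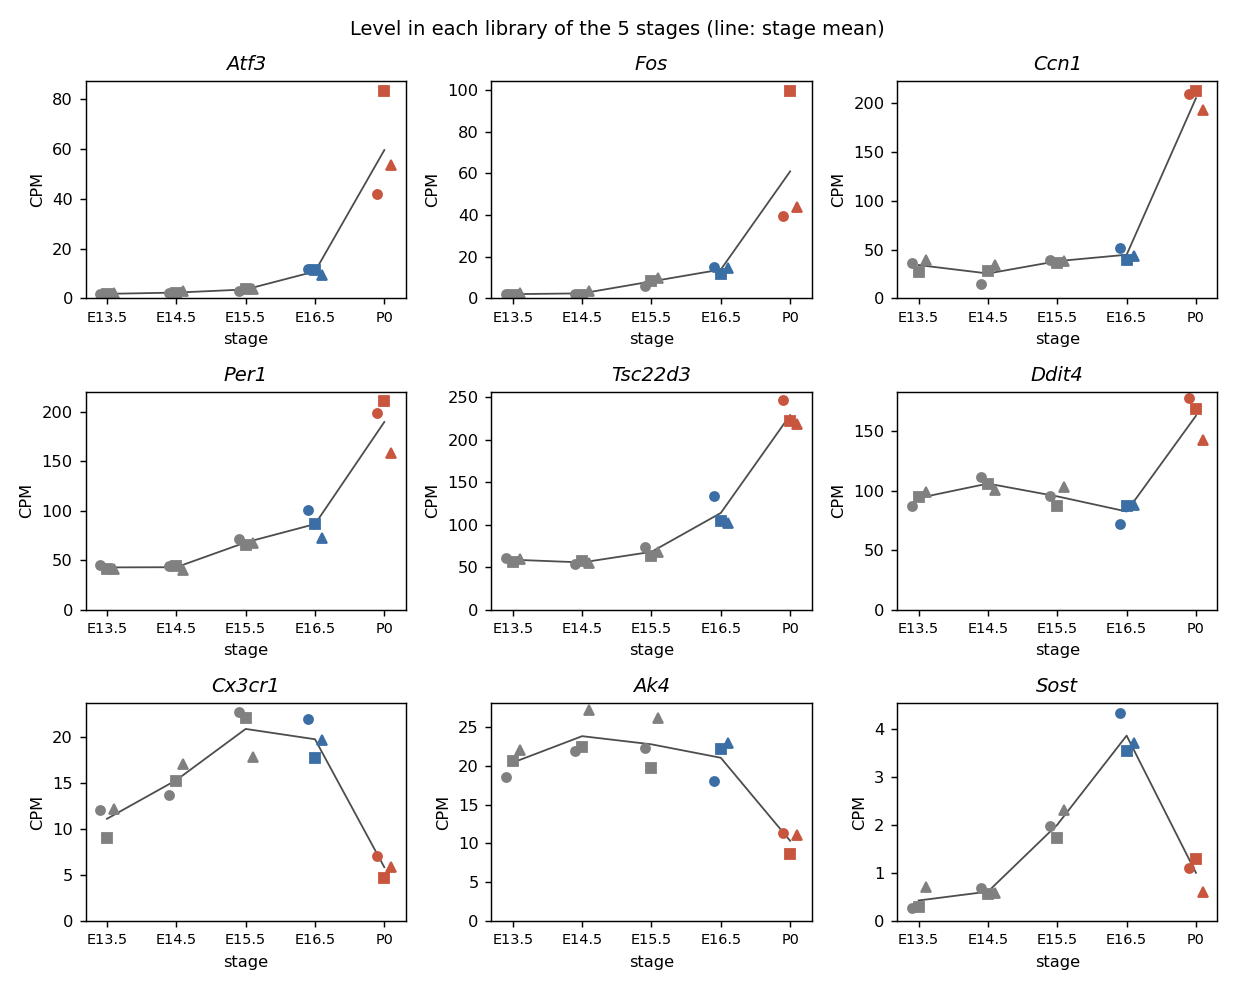
CPM (linear axes from 0) of 9 genes in each library of the 5 stages, with circles, squares and triangles for libraries 1, 2 and 3, grey for E13.5 to E15.5, blue for E16.5 and red for P0, and a line through the stage means. The P0 points of *Ddit4* and *Ccn1* stand apart from all earlier points, *Per1* and *Tsc22d3* are higher from E15.5 on, and *Sost* peaks at E16.5 at a mean of 3.87 CPM before 1.00 CPM at P0.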

How the data were processed

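RNA was extracted with a Macherey Nagel NucleoSpin kit and libraries were prepared after an Illumina protocol, per the labels. The deposited values are counts per gene that the authors made with featureCounts 2.0.1, counting fragments on the reverse strand against GENCODE M18, per the file headers. The submitters' processing notes also name the build mm10 and cutadapt 3.4, FastQC 0.11.9, Bowtie2, HISAT2 2.2.1 and SAMtools 1.12. The input files are named as duplicate-marked, and the recorded command drops no duplicates. Positions are those of the file, and 97.7% of the identifiers had the same position in GENCODE M21 (GRCm38). Symbols came from M21 for 54079 identifiers.

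From the counts, low genes were removed per stage (filterByExpr, minimum count 10), libraries were scaled by TMM, and a model with a coefficient for each stage was fitted to all 15 libraries in edgeR 4.0.16 under R 4.3.3 (common biological coefficient of variation 0.332). P0 minus E16.5 was then tested by quasi-likelihood F, with Benjamini-Hochberg adjustment over 22151 genes. Standard errors (SE) are the log2 fold change divided by the root of F, and CPM use TMM-adjusted totals (prior count 2 for fold changes). Log2 ratios of single libraries used a pseudocount of 0.1 CPM. The 32 gene lists (482 entries, 3 without a unique match) and the contrast were chosen with earlier results of these data known. The glucocorticoid motif was added after the files were seen. Text names the 12 largest rises and falls past the threshold with a mean of at least 5 CPM and separate libraries. Also named are every list member that passed, the sex-linked genes, *Sost* and *Pax9*. Of the 2 most abundant members of each list, some are named and others are not. Stray-tissue markers are given as sums over their lists. 1 of the rises is not reported here. Further genes that did not pass were chosen after their values were seen. Promoters came from RefSeq (GRCm38.p6). Alternatives used DESeq2 1.42.0 and limma 3.58.1, other normalizations, filters and prior counts, thinning, and fits without libraries. The fit was tested on simulated data. Figures were drawn with matplotlib.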

Additional observations from a re-analysis of the deposited data

How the results depend on the processing

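All 78 genes kept their direction under every alternative in which they were tested. DESeq2 gave 667 genes (335 higher, 332 lower), of which 76 were among the 78, and limma-voom with library quality weights 77 (57 higher, 20 lower). With DESeq2's size factors in edgeR 62 passed (36 higher, 26 lower), and with upper-quartile normalization 53 (36 higher, 17 lower). Without a filter on low counts 25 passed (15 higher, 10 lower), with counts thinned to the smallest library 28 (17 higher, 11 lower), and with a replicate block 35 (19 higher, 16 lower). The deviations of same-numbered libraries from their stage means correlated at 0.0800, -0.303 and 0.472. Those of differently numbered libraries correlated at -0.409 to 0.416. With 3 libraries per stage these values cannot show whether library numbers mark pairs. A fit to only the 6 libraries gave 0 genes in edgeR (1129 at an unadjusted p under 0.05). Without the 3 libraries with stray tissue 0 passed (5038 unadjusted, the lone P0 library being assumed to vary like the other groups), and the medians were 0.81 for the immediate early and 0.95 for the glucocorticoid list.

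Leaving out 1 library at a time gave 10 to 216 genes, 8 to 87 higher and 2 to 129 lower. The totals were 216, 10 and 12 without E16.5 replicates 1, 2 and 3, and 40, 24 and 103 without P0 replicates 1, 2 and 3. Without E16.5 replicate 2 or 3, 2 immediate early and 3 glucocorticoid genes passed, and the cause was not tested. Of the 78 genes 9 passed in all 6 of these fits (*Atf3*, *Ccn1*, *Ahdc1*, *Cx3cr1*, *Ddit4*, *Per1*, *Tsc22d3*, *mt-Tw* and *mt-Tt*) and 5 in none. *Pax9* (0.23 with all libraries) reversed to -0.039 without P0 replicate 2, against 0.46 without E16.5 replicate 2, and to -0.11 without the 3 libraries with stray tissue. Leaving out 1 library also turned the sign of the median of the YAP and TEAD (-0.031 without P0 replicate 2), hypoxia (0.034 without E16.5 replicate 1), palate patterning (0.091 without E16.5 replicate 3) and Wnt (0.16 without E16.5 replicate 3) lists.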

Other observations

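The genes in this section lie outside the lists, and they were chosen after their values were seen. Mitochondrial RNAs were among the rises: the transfer RNA gene *mt-Tw* was at 0.151, 0.111 and 0.0734 CPM at E16.5 and at 3.38, 4.73 and 3.4 CPM at P0, *mt-Tt* at 0.302, 0.138 and 0.171 CPM and then at 2.22, 3.84 and 1.96 CPM, and *mt-Tl1* at 0.41, 0.387 and 0.269 CPM and then at 1.89, 5.92 and 2.92 CPM (edgeR adjusted p 0.00412, 0.00415 and 0.00517). The large ribosomal RNA *mt-Rnr2*, which lies directly before *mt-Tl1*, rose from 154, 167 and 138 CPM to 267, 424 and 337 CPM (log2 fold change 1.16, adjusted p 0.0394), while the small ribosomal RNA *mt-Rnr1* had a log2 fold change of -0.037 (adjusted p 0.942). Of 6 tested mitochondrial transfer RNAs 3 rose and 3 did not pass, the lowest at -0.25. Of 13 mitochondrial mRNAs 0 passed, and their median log2 fold change was 0.46.

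Single rises outside the lists included *Cirbp*, a cold-inducible RNA-binding protein, at 62.1, 67.4 and 58.4 CPM and then at 140, 153 and 177 CPM (log2 fold change 1.32, adjusted p 0.00517), and *Pik3ip1*, an inhibitor of PI3 kinase, at 32.4, 30.1 and 27.9 CPM and then at 59.5, 56.2 and 56.1 CPM (log2 fold change 0.93, adjusted p 0.00523). *Nfkbia*, the inhibitor of NF-kappa-B, rose with a log2 fold change of 1.07 (edgeR adjusted p 0.0489); when each of the 6 libraries was omitted in turn the call held 1 time (adjusted p 0.0411 to 0.211). *Plaur*, the urokinase receptor, rose with 1.38 (edgeR adjusted p 0.0383) and its call held 0 times (edgeR adjusted p 0.0549 to 0.174).

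Single falls outside the lists included *Polr1a*, the catalytic subunit of RNA polymerase I, which went from 68.7, 68.7 and 70.6 CPM to 47.8, 46.2 and 44.5 CPM (log2 fold change -0.59, adjusted p 0.0445), a call that held for 1 of the 6 omissions. *Heatr1*, needed for the processing of ribosomal RNA, fell by 0.57 on the log2 scale, and the translation genes *Gspt1*, *Abce1*, *Dhx29* and *Iars* fell by 0.58, 0.56, 0.63 and 0.52. *Gemin5*, which delivers small nuclear RNAs to the SMN complex, fell from 43.1, 47.4 and 48.3 CPM to 31.5, 29.0 and 30.9 CPM (log2 fold change -0.60, adjusted p 0.0192).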
